A study of Mus musculus with 14 samples.

Results

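Cloned blastocysts made by injecting a cumulus cell nucleus into an enucleated oocyte (injection clones) were compared with female (XX) blastocysts made by in vitro fertilization (IVF). The comparison took the 4 arrays labelled as injection clones and the 3 labelled as female IVF controls, which are 7 of the 14 arrays in the series. The other arrays were 4 clones made from cumulus cells by cell fusion and 3 male IVF embryos, and their values are given for some of the named genes only. All embryos were collected at E4.0 after culture in KSOM, a simple embryo medium, and all 7 compared here are labelled female. The series describes its IVF controls as matched to the clones in sex and genotype. The methods of the study name heterozygous Xist knockout mice on a BDF1 background (a C57BL/6N by DBA/2 cross) as the nuclear donors. The labels of these 7 arrays give neither strain nor Xist genotype. They name blastocyst as the tissue, whereas their extraction text speaks of epiblasts and extraembryonic regions of single embryos. Since the number of embryos behind an array and their cultures are not given, the p-values below measure only the spread between these samples.

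In somatic cell nuclear transfer the oocyte has to return the chromatin of a differentiated nucleus to an embryonic state within a few cell cycles. Donor marks that resist this resetting, among them DNA methylation and methylation of histone H3 at lysine 9, are the best studied obstacles to cloning. By E4.0 a mouse blastocyst holds trophectoderm, which forms placenta, epiblast, which forms the fetus, and primitive endoderm, which lays down basement membrane and forms the yolk sac. The X-linked Magea and Xlr families are not described here, and autosomal genes were taken in their place.

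RNA was amplified over several rounds, labelled with Cy3 and hybridized to Agilent one-colour arrays, and a level below is a normalised signal on the log2 scale with a floor of 4. A gene was read by its brightest probe. Between 59.8% and 65.2% of the gene spots of the injection arrays were well above background, against 58.5% to 60.8% of those of the female IVF arrays. Each group lay on a slide of its own, and the clones and the IVF embryos were read on different scanners with different software versions, so these cannot be told apart from the groups. Injection clone 4 correlated with the female IVF arrays at r = 0.936 over probes and the other 3 clones at 0.911 to 0.923. Of the named genes for which clone 4 lay far from the other clones, all but Olfr1406 passed without it, with log2 differences of -3.14 for Serpinh1, -3.51 for Zfp57, -1.35 for Il11ra1, 3.35 for Ube3a, 3.39 for H2ac15, 4.14 for H2ac23, -5.78 for Gjc1 and -1.18 for Cacng6. Olfr1406 differed by -0.85 (adjusted p = 0.0555 in limma's test). In such bulk samples fewer cells of a type and less RNA per cell cannot be told apart.

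Injection clones differed from female IVF embryos at autosomal genes of many functions, and more of them were lower than higher in the clones. Of 19179 autosomal genes on the array 16606 were tested, and 617 of them (3.72%) passed limma's moderated test at a Benjamini-Hochberg adjusted p below 0.05. Among these, 204 (1.23%) were higher and 413 (2.49%) lower in injection clones. The test was fitted over 32840 probes of all chromosomes, of which 1205 (3.67%) passed, 503 (1.53%) higher and 702 (2.14%) lower. The genes that rose had a median level of 9.87 in female IVF embryos and 11.66 in injection clones, and 158 of them were well above background on all 7 arrays. The genes that fell had a median level of 10.29 in female IVF embryos and 7.86 in injection clones, and 287 of them were well above background on all 7 arrays. Leaving out 1 array at a time gave 19 to 197 higher and 54 to 447 lower genes, the fewest (19 and 54) without injection clone 3. The median difference over all autosomal genes was -0.16 on the log2 scale.

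The sizes of the changes were spread widely. Among the genes that rose, 175 changed at least 2-fold, 73 at least 4-fold and 19 at least 16-fold. Among those that fell, 351, 147 and 35 passed the same sizes. The arrays of both groups did not overlap for any of the 617 genes, against 23.2% of all autosomal genes tested. Under the threshold of the study's methods, an unadjusted p below 0.05 with a change of at least 2-fold, 804 autosomal genes (4.84%) were higher and 1313 (7.91%) lower. With the deposited normalised table in place of the scanner signals, 111 were higher and 134 lower at the adjusted threshold, a split of 45.3% higher in place of 33.1%.

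**Figure D1:**
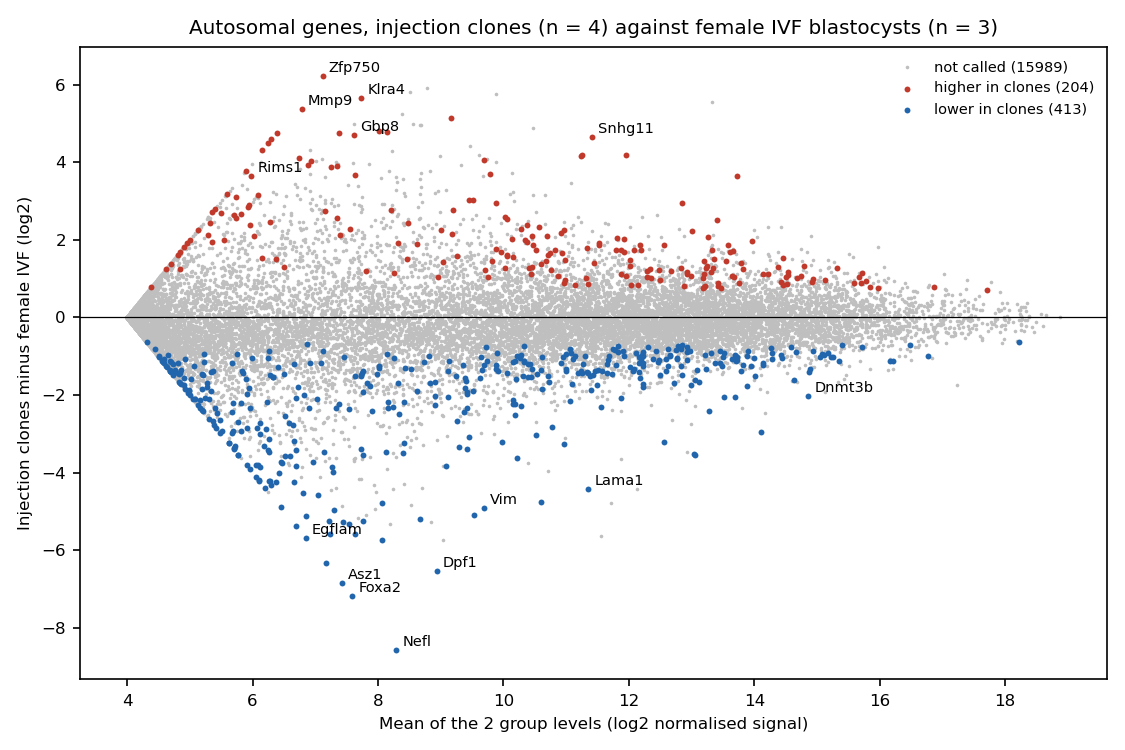
Log2 difference between injection clones and female IVF embryos (vertical axis) against the mean log2 level (horizontal axis) for each autosomal gene tested. Grey points are the 15989 genes that did not pass the test, red points the 204 that were higher and blue points the 413 that were lower in injection clones, and some of the named genes carry their symbol.

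Several genes were read on every female IVF array and on no injection array. These were the neurofilament gene Nefl, the germ cell gene Asz1, the BMP-binding protein gene Bmper, the matrix genes Egflam and Col6a3, the LIM homeobox gene Lhx6, the G protein subunit gene Gnb4 and the PACAP receptor gene Adcyap1r1. For such genes the fold is a lower bound, taken between the means of the 2 groups. In the group not above background, a level under the array's lowest signal well above background was first raised to that signal. This signal was not allowed under the floor. It was 4.0, the floor itself, on the female IVF arrays and injection clones 3 and 4, and 4.20 and 4.13 on injection clones 1 and 2. Nefl, which encodes the light neurofilament subunit, was at the floor of 4.0 in all 4 injection clones and at 12.42, 12.45 and 12.88 in the female IVF embryos. It was at least 362-fold lower in injection clones, with a log2 difference of -8.58 ± 0.15 (SE) and an adjusted p of 4.24e-05, and both of its probes passed. Male IVF embryos averaged 12.22 and fusion clones 5.61.

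Asz1, whose product works in the piRNA pathway that silences transposons in germ cells, was also at the floor in all 4 injection clones. It read 10.51, 11.22 and 10.83 in female IVF embryos, a fall of at least 109-fold (adjusted p = 0.00019). The fusion clones averaged 4.0 and the male IVF embryos 10.16, so the clone arrays lay at the floor and the IVF arrays far above it. Egflam, which encodes the matrix protein pikachurin, was at the floor in the injection clones and at 10.28, 9.30 and 9.52 in female IVF embryos, at least 49.0-fold lower. Bmper was at least 76.5-fold and Col6a3, a collagen VI chain, at least 28.2-fold lower, though both varied by more than 2 log2 units among the IVF arrays. Lhx6, Gnb4 and Adcyap1r1 were at least 19.9-, 17.5- and 17.3-fold lower, and the male IVF embryos averaged only 5.08, 4.47 and 4.39 for these genes.

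In the opposite direction, some genes were read in all 4 injection clones and in no female IVF embryo. Zfp750, a regulator of epidermal differentiation, stood at 9.40, 11.70, 10.24 and 9.59 in injection clones 1 to 4 and at the floor in all 3 female IVF embryos. This was a rise of at least 75.2-fold (log2 difference 6.23 ± 0.56, adjusted p = 0.0117). Mmp9, a matrix-degrading gelatinase, read 10.48, 9.5, 9.71 and 8.21 against 4.28, 4.0 and 4.0, at least 41.8-fold higher, although its dimmer probe differed by only 0.58 and did not pass. Lrrc66, Ypel2, the organic anion transporter gene Slc22a7, the phosphodiesterase gene Gdpd3 and Sort1, which encodes the sorting receptor sortilin, were at least 27.3-, 22.5-, 19.8-, 13.8- and 9.15-fold higher. Tdrd1, a tudor domain gene of the germ cell piRNA pathway, read 10.01, 8.83, 7.63 and 7.90 in the clones and the floor in every female IVF embryo, at least 24.1-fold higher (adjusted p = 0.0242). Over all autosomal genes tested, 64 were well above background on every female IVF array and no injection array, and 74 showed the reverse.

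**Figure D2:**
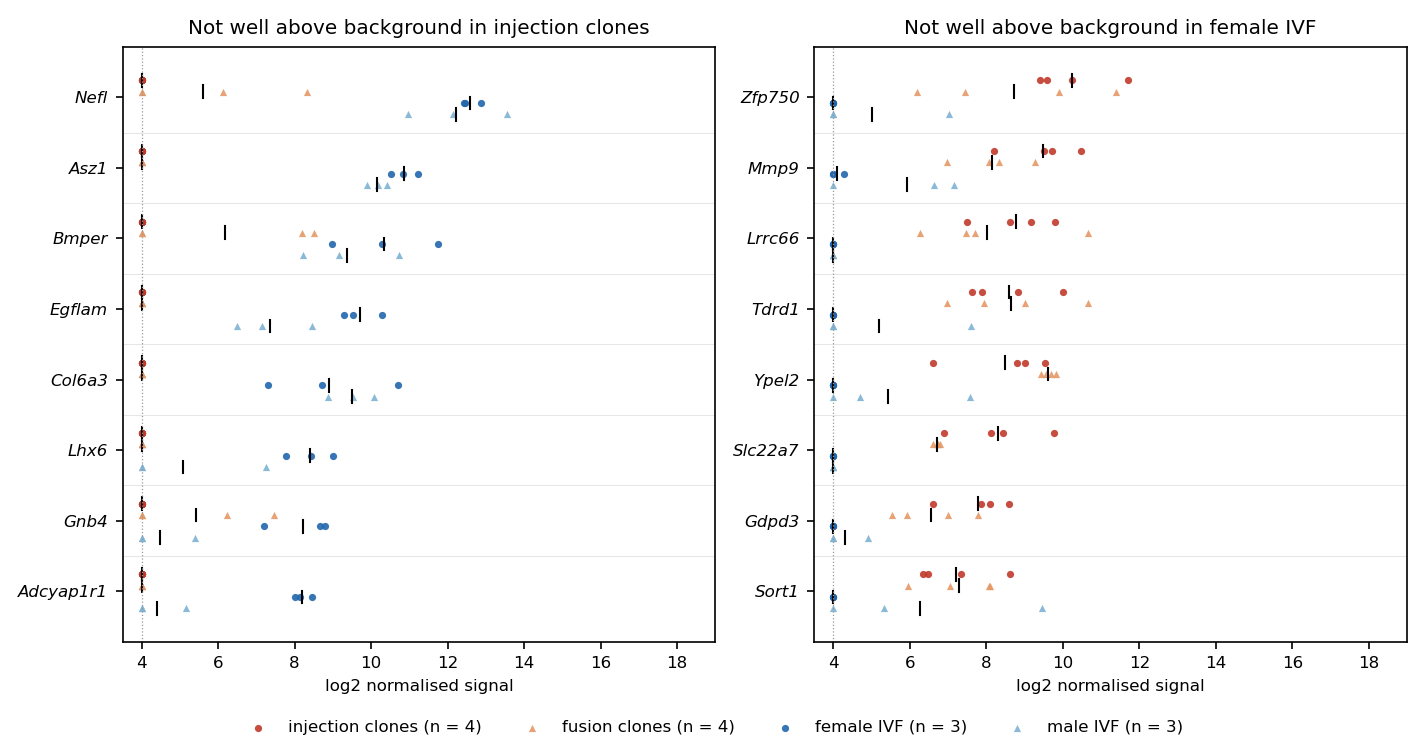
Log2 level of each array for the 8 genes with the largest fall and the 8 with the largest rise by lower bound. Red circles are injection clones, orange triangles fusion clones, blue circles female IVF embryos and light blue triangles male IVF embryos, black ticks are group means and the dotted line is the floor at 4. The injection clones lie on the floor for the genes that fell and the female IVF embryos on or next to it for those that rose.

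Asz1 and Tdrd1 act in the same germ cell pathway and moved in opposite directions, so the sequence around their start sites is shown (RefSeq, assembly GRCm38.p6, from 250 bases before to 50 bases after the start, read along the gene). Capitals mark CG dinucleotides, the letters at which mammalian DNA is methylated. The Asz1 window is chr6:18109012-18109311 on the minus strand and the Tdrd1 window, the first of 3 listed, is chr19:56825959-56826258 on the plus strand.
Asz1: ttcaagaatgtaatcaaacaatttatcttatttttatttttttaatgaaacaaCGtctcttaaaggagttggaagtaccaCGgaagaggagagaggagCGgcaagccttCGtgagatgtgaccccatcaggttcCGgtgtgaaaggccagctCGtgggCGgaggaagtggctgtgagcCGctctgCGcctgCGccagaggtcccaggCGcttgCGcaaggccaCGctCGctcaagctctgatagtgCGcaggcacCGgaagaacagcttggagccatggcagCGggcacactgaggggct
Tdrd1: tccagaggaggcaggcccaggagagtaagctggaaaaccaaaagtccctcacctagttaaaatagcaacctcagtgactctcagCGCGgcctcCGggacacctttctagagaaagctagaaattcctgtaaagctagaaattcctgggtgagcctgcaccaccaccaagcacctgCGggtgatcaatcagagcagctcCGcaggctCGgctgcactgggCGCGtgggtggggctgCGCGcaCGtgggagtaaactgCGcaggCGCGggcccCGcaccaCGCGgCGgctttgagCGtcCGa
The Asz1 window held 17 CG dinucleotides and the Tdrd1 window 20, near the median of 18 over 13182 tested autosomal genes with a listed promoter. The letters CACGTG, a motif that reads the same on both strands, occurred in the Tdrd1 window and not in that of Asz1, and 9.11% of the 13182 windows held them.

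Among genes read on every array, the largest falls began with Dpf1 and Pth1r. Dpf1, a neuronal subunit of the BAF chromatin remodelling complex, stood at 6.05, 5.84, 5.18 and 5.61 in injection clones and at 12.77, 12.13 and 11.70 in female IVF embryos. It was 92.6-fold lower (log2 difference -6.53 ± 0.32, adjusted p = 0.00194), and male IVF embryos averaged 7.90. Pth1r, the receptor for parathyroid hormone and its related peptide, read 7.08, 6.02, 7.40 and 7.44 against 12.83, 10.83 and 12.57, with both probes passing. Vim, which encodes the intermediate filament protein vimentin, read 7.38, 6.46, 8.03 and 7.04 against 13.03, 11.53 and 11.89, but its dimmer probe differed by 0.38 in the other direction and did not pass. Bend5, Oas1a, Cyp2d10, Raet1e, Rcn1, Tnfrsf21, Lama1, Hspg2 and Serpinh1 completed the 12 largest falls of this kind, with log2 differences from -4.76 for Bend5 to -3.52 for Serpinh1. As their choice required, the highest injection array lay below the lowest female IVF array in each.

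The largest rises among genes read on every array began with Klra7, Gbp8 and Snhg11. Klra7, a receptor of the Ly49 family, stood at 12.44, 12.72, 10.56 and 11.23 in injection clones and at 8.10, 4.60 and 7.06 in female IVF embryos (log2 difference 5.15 ± 0.95, adjusted p = 0.0464). Gbp8, an interferon-inducible GTPase gene, read 10.11, 9.58, 10.12 and 10.05 against 4.78, 6.17 and 4.86, 26.0-fold higher (adjusted p = 0.0081). Snhg11, a noncoding host gene of small nucleolar RNAs, read 14.18, 14.45, 13.82 and 12.51 against 9.54, 9.08 and 8.64 and was 25.2-fold higher. Mgst2, a microsomal glutathione transferase, and Nat2, an arylamine acetyltransferase, were 18.3- and 18.2-fold higher, the glycine receptor subunit gene Glrb 16.8-fold and the sarcoglycan gene Sgcb 12.9-fold. The noncoding gene Dubr and Cd68, a glycoprotein of lysosomes and macrophages, were 8.15- and 8.13-fold higher.

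One of the largest rises did not set the clones apart from the male IVF embryos. Rbm47, an RNA-binding protein gene, read 13.56, 14.19, 13.40 and 12.10 in injection clones and 8.60, 10.48 and 8.39 in female IVF embryos, 17.8-fold higher (adjusted p = 0.0396). The male IVF embryos ranged from 11.94 to 14.52, within which the injection clones lay, and the limma test of injection clones against male IVF embryos gave an adjusted p of 0.83. Among the falls, Il1r2, a decoy receptor for the cytokine IL-1, averaged 4.0 in male IVF embryos, as in the fusion clones, and was 18.6-fold lower in injection clones than in female IVF embryos.

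**Figure D3:**
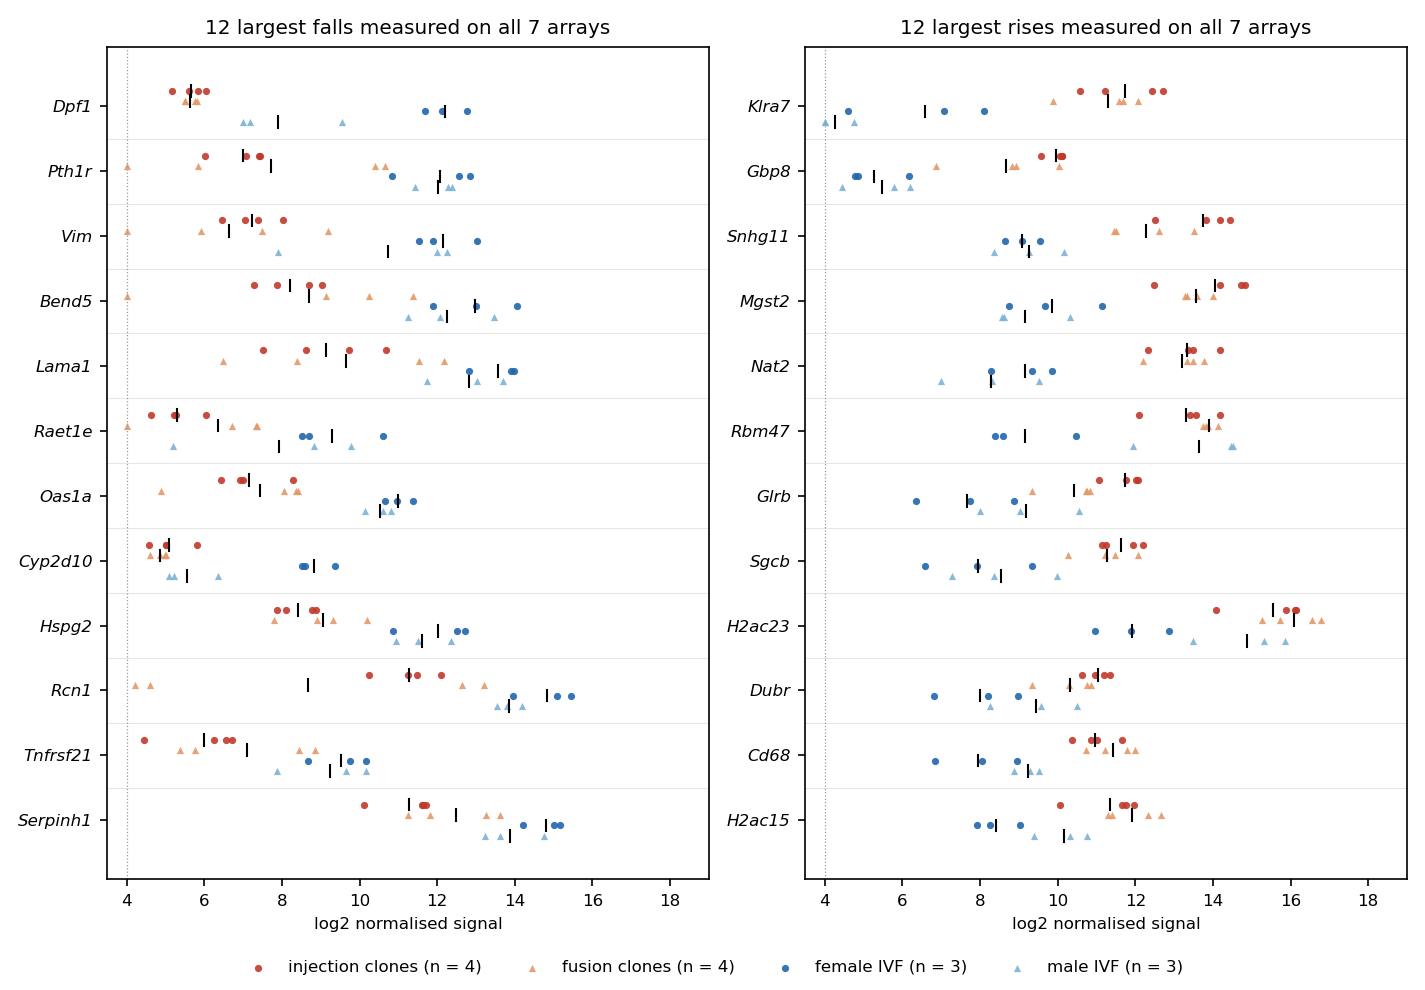
Log2 level of each array for the 12 largest falls and the 12 largest rises among genes read on every array of both groups. Symbols are as in the plot of genes read in one group, with black ticks for group means. As the choice of genes required, the 4 injection clones and the 3 female IVF embryos are separate in every panel, and for Rbm47 the male IVF embryos lie with the clones.

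The rises with the smallest p-values had little spread between arrays. Prelid2, which encodes a PRELI domain protein, read 14.92, 14.89, 15.01 and 14.96 in injection clones and 13.10, 13.03 and 12.83 in female IVF embryos (log2 difference 1.96 ± 0.13, adjusted p = 0.0042). Male IVF embryos averaged 12.99. Rims1, a scaffold gene of synaptic release sites, read 8.12, 8.02, 7.46 and 7.59 against 4.29, 4.13 and 4.05 (adjusted p = 0.00338). Zswim7, a homologous recombination factor, and Ppp3ca, the catalytic subunit of calcineurin, were 3.66- and 4.69-fold higher, and the kisspeptin receptor gene Kiss1r and the retinoic acid receptor gene Rarg at least 4.77- and 3.07-fold higher. Of the 155 named genes that passed, 21 also passed in each fit that left out 1 array, among them Nefl, Asz1, Dpf1, Egflam, Foxa2, Vim, Zfp750, Gbp8, Rims1 and Prelid2.

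Genes that write or read DNA methylation included 3 falls. Of 20 tested autosomal genes of this group 0 rose and 3 (15%, against 2.49% of all autosomal genes) fell, with a median log2 difference of -0.63 against -0.16 over all autosomal genes. The median was -0.03 with probes averaged per gene, and 0 to 3 genes fell when 1 array was left out. Dnmt3b, a de novo methyltransferase, read 14.16, 13.60, 13.50 and 14.14 in injection clones and 16.05, 15.84 and 15.74 in female IVF embryos, 4.08-fold lower (adjusted p = 0.0179). Dnmt1, the maintenance methyltransferase, read 10.36, 10.67, 10.60 and 11.13 against 11.83, 12.51 and 12.17, 2.79-fold lower (adjusted p = 0.0405). Zfp57, a zinc finger protein that keeps imprinted regions methylated after fertilization, read 4.65, 4.82, 4.80 and 6.02 against 7.91, 8.03 and 8.85, 9.14-fold lower (adjusted p = 0.0259). All 3 had male IVF averages (15.64, 12.20 and 7.82) above every injection array. Uhrf1, the partner of Dnmt1 at replicated DNA, differed by -1.02 with an adjusted p of 0.0661. Dnmt3a differed by 0.97 (adjusted p = 0.319) and its probes disagreed in sign, and Tet2, an enzyme that oxidises methylcytosine, differed by 3.16 (adjusted p = 0.0688).

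Regulators of histone H3 lysine 9 methylation contributed further falls. Of 27 tested genes 0 rose and 3 (11.1%, against 2.49% of all autosomal genes) fell. The median of the group, -0.09, was not below that of all autosomal genes. Setdb1, an H3 lysine 9 methyltransferase, read 10.27, 9.75, 10.13 and 10.84 in injection clones and 11.82, 12.16 and 11.87 in female IVF embryos, 3.26-fold lower (adjusted p = 0.0371). Morc2a, a silencing ATPase that works with the HUSH complex, was 2.54-fold lower, and its other probe differed by -0.05. Chaf1a, the large subunit of the histone chaperone that deposits H3 at replication forks, was 1.74-fold lower (adjusted p = 0.0324). Trim28, the corepressor that links zinc finger proteins to Setdb1, differed by -1.19 and missed the threshold (adjusted p = 0.0535). With the deposited normalised table in place of the scanner signals none of these genes passed, and 0 to 3 fell when 1 array was left out.

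Among other chromatin groups, the polycomb gene Cbx7 was 3.47-fold lower (adjusted p = 0.026). This was 1 of 29 tested polycomb genes (3.45%), and 2.49% of all autosomal genes fell. The remodeller genes Actl6a, Cabin1 and Ep400 fell by their brightest probes, 3 of 37 (8.11%). But each had another probe that pointed the other way, and with probes averaged all 3 differences turned positive (1.01, 0.50 and 0.56). Of 33 deacetylase and acetyltransferase genes 0 passed limma's test. Under the methods' threshold 0 were higher and 3 (9.09%) lower, against 4.84% and 7.91% of all autosomal genes.

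Histone genes included 3 rises. Their median log2 difference was 0.63 over 42 tested genes, 3 (7.14%) rose and 0 fell, and 8 were higher and 0 lower under the methods' threshold. H2ac13 read 10.80, 10.83, 11.21 and 9.43 in injection clones and 7.77, 8.26 and 7.40 in female IVF embryos. H2ac15 read 11.65, 11.76, 11.97 and 10.06 against 8.27, 9.03 and 7.91. H2ac18 was 4.39-fold higher (adjusted p = 0.049). H2ac23, an H2A gene outside the list because the array names it differently, read 15.88, 16.10, 16.14 and 14.07 against 11.89, 12.87 and 10.96. Injection clone 4 was the lowest clone for each of these genes, and without it 6 histone genes rose. Leaving out any other single array left 0 rises, and without female IVF embryo 2, 1 histone gene fell. The median stayed between 0.36 and 0.97 in these fits. H2A genes are nearly identical in sequence, so their probes may share signal. The male IVF averages were 9.30, 10.15 and 14.89 for H2ac13, H2ac15 and H2ac23, higher than the female ones.

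Receptors of the natural killer gene complex, a cluster on chromosome 6, included some of the largest rises. Only 17 of the 33 genes of this list were tested, the rest being below background on all 7 arrays. Of these 17, 3 (17.6%, against 1.23% of all autosomal genes) rose while 0 fell. A gene could be tested through the clone arrays alone, and 5 of the 17 were well above background on all 7 arrays. Klra4 read 11.33, 11.11, 9.5 and 10.32 in injection clones and 6.64, 4.09 and 4.0 in female IVF embryos (50.5-fold, adjusted p = 0.029), and Klra16 read 11.06, 11.27, 9.15 and 10.22 against 6.8, 4.03 and 6.04 (28.0-fold, adjusted p = 0.0405). Male IVF embryos averaged 4.0, 4.63 and 4.25 for Klra4, Klra16 and Klra7, and fusion clones 9.87, 9.93 and 11.30. The Ly49 genes are close paralogs, and the second probes of Klra4 and Klra7 did not pass. When 1 array was left out 0 or 1 gene of the list rose, and without female IVF embryo 1, 1 gene of the list fell. The median of the list was 0.08, but 1.20 with the deposited normalised values and 1.0 with a floor of 1. In the fit with no filter 1 of the 17 genes rose. In that limited to probes well above background on all 7 arrays 1 of 5 rose.

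Immune genes otherwise moved both ways. Of 45 interferon response genes 1 (2.22%) rose and 2 (4.44%) fell, against 1.23% and 2.49% of all autosomal genes. Under the methods' threshold 2 (4.44%) were higher and 9 (20%) lower, against 4.84% and 7.91% of all autosomal genes. Oas1a, an antiviral oligoadenylate synthetase, read 8.29, 6.93, 7.0 and 6.44 in injection clones and 10.95, 11.38 and 10.65 in female IVF embryos, and Ifitm3, an antiviral membrane protein, was 13.5-fold lower. Bst2, which tethers virions, was 2.64-fold higher. Of 43 histocompatibility and antigen processing genes 1 (2.33%) rose and 2 (4.65%) fell. Raet1e and Raet1d, ligands of the NKG2D receptor, were 15.8- and 6.43-fold lower. H2-T22, a nonclassical class I gene, was 16.4-fold higher. Each of these genes has close paralogs on the array.

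Extracellular matrix genes included 4 falls, among them 2 laminin chains. Of 37 tested 0 rose and 4 (10.8%) fell, with a median of -0.66 that lay between -0.78 and -0.50 when 1 array was left out while 0 to 3 genes fell, and 10 were lower and 2 higher under the methods' threshold. The laminin chain gene Lama1 read 7.51, 8.61, 10.68 and 9.74 in injection clones and 13.98, 12.82 and 13.90 in female IVF embryos (adjusted p = 0.0444), with a dimmer probe that differed by 0.54. Lamb1, the laminin beta chain of the same basement membrane, was 3.05-fold lower, and Hspg2, which encodes perlecan, read 8.11, 7.86, 8.76 and 8.88 against 12.51, 10.87 and 12.73. Serpinh1, the collagen chaperone, read 11.62, 11.73, 11.64 and 10.12 against levels from 14.22 to 15.17. The collagen IV genes Col4a1 and Col4a2 and the matrix protein gene Sparc differed by -1.96, -2.42 and -2.47 without passing (adjusted p = 0.0638, 0.0562 and 0.0879).

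Markers of primitive endoderm, the cells that make much of this matrix, had a lower summed signal in injection clones than in female IVF embryos. Their summed signal before the log ranged from 148243 to 207034 in injection clones and from 239952 to 312961 in female IVF embryos, and in fusion clones and male IVF embryos from 175232 to 253152 and from 188902 to 318065. Of 9 marker genes 2 fell, Lama1 and the endoderm transcription factor gene Foxa2, and the median difference was -3.57. Lama1 and Col4a1 are also among the matrix genes above, so for them the marker and matrix values are the same measurement. Foxa2 was at the floor in all 4 injection clones and at 11.30, 10.86 and 11.40 in female IVF embryos (adjusted p = 8.94e-05). Since 1 injection array was marked well above background for this probe, its fold of 146 depends on the floor. Gata4, Sox7 and Sox17 differed by -3.57, -5.28 and -4.79 without passing (adjusted p = 0.0643, 0.0643 and 0.319), and Sox17 ranged from 4.0 to 14.81 among the clones. Gata6, an early regulator of this lineage, differed by -0.10 (adjusted p = 0.858). The part of primitive endoderm content in the matrix result was not tested.

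Markers of the other cell types passed the test in 1 case. Of 8 tested trophectoderm markers 0 passed and the median was -0.32, with Elf5 and Krt7 at -3.65 and -2.63 (adjusted p = 0.0664 and 0.0641) and Cdx2 at -0.53 (adjusted p = 0.274). Their summed signal was 623701 to 879982 in injection clones and 855723 to 1.01956e+06 in female IVF embryos. Of 7 inner cell mass and epiblast markers 1 rose, Zfp42 (0.93), and the sum was 108850 to 150688 against 87829.7 to 108123, while the median difference was -0.20. Cumulus and granulosa markers, the type of the donor cell, summed to 2492.59 to 4352.01 in injection clones and 1942.27 to 2585.59 in female IVF embryos, while their median difference was -0.60. The ranges of the sums overlap, and Ptgs2, Ptx3, Tnfaip6 and Lhcgr were well above background on none of the 7 arrays. Oocyte markers summed to 1335.44 to 1907.88 against 849.016 to 1271.92, and 0 of the 11 tested cumulus and granulosa genes and 0 of the 7 tested oocyte genes passed. The part of these cell types in the results was not tested.

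**Figure D4:**
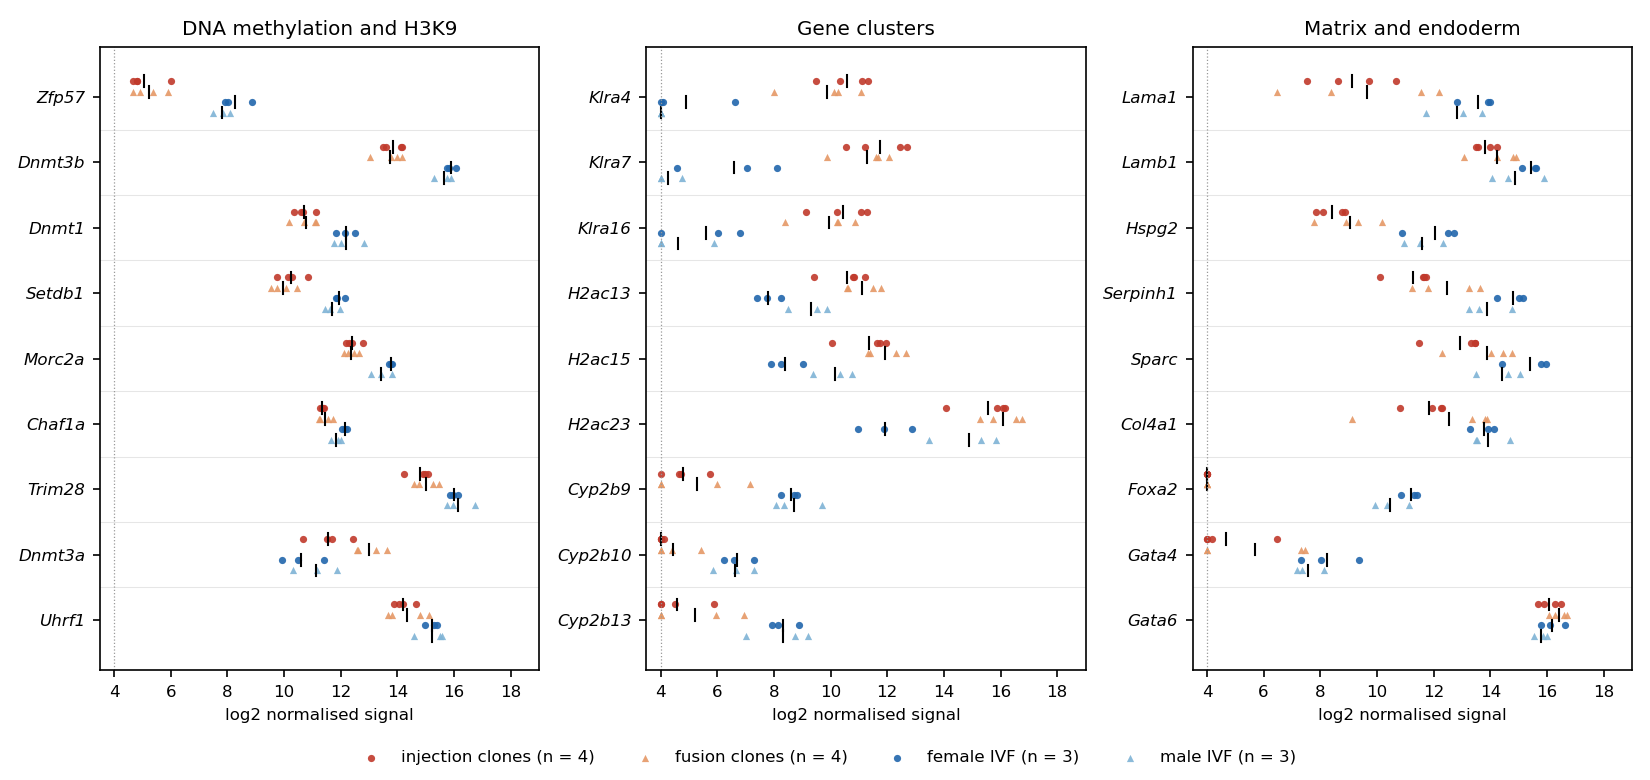
Log2 level of each array for genes of DNA methylation and histone H3 lysine 9, for gene clusters and for matrix and endoderm genes, with red circles for injection clones, orange triangles for fusion clones, blue circles for female and light blue triangles for male IVF embryos. Dnmt3b, Dnmt1, Zfp57 and Setdb1 are lower in all injection clones than in all female IVF embryos, the Klra and H2ac genes are higher, and the groups overlap for Gata6.

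BMP ligands and homeobox genes were among the falls. Of 39 genes of the TGF-beta and BMP pathways 0 rose and 4 (10.3%, against 2.49% of all autosomal genes) fell. When 1 array was left out 0 to 3 fell and 0 to 2 rose, with 2 of each without female IVF embryo 1. The ligand gene Bmp4 read 6.17, 6.23, 7.66 and 7.10 in injection clones and 9.78, 10.20 and 10.08 in female IVF embryos (adjusted p = 0.0241), with a male IVF average of 10.53. Bmp6 read 4.0, 4.0, 4.72 and 4.0 against 7.23, 6.08 and 8.18. Downstream of the receptors, the signal transducer gene Smad5 was 2.04-fold and the BMP target gene Id2 2.17-fold lower. Id1 and Id3, further BMP targets, differed by -3.55 and -2.50 without passing (adjusted p = 0.147 and 0.121), and the ligand gene Bmp7 by 3.09 (adjusted p = 0.0546).

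Hox and other homeobox developmental genes had a median of -0.55 over 100 tested genes (-0.25 with normexp background correction, -0.32 with a floor of 32 and -0.81 with a floor of 1 on the linear scale), 0 rose and 5 (5%) fell, and under the methods' threshold 1 was higher and 22 lower. Over all autosomal genes 2.49% fell, and 4.84% were higher and 7.91% lower under the methods' threshold. When 1 array was left out 2 to 8 homeobox genes fell. Only 39 of the 100 were well above background on all 7 arrays. In a fit limited to probes of that kind these 39 had a median of -0.62, and 0 rose and 5 fell. En2, a midbrain and hindbrain gene, read 4.36, 4.13, 4.59 and 5.11 in injection clones and 8.38, 8.06 and 7.42 in female IVF embryos (adjusted p = 0.0129). Hoxa5 was at least 14.2-fold lower, and Lhx6 and Msx3 (log2 difference -1.01) also fell.

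Wnt, Notch and Hedgehog genes went both ways. Of 43 Wnt pathway genes 2 (4.65%) rose and 3 (6.98%) fell, against 1.23% and 2.49% of all autosomal genes. When 1 array was left out 0 to 2 rose and 1 or 2 fell. The ligand gene Wnt3 was 7.42-fold and the inhibitor gene Axin1 2.23-fold higher. The ligand gene Wnt11 was 3.91-fold, the receptor gene Fzd8 6.82-fold and the coreceptor gene Lgr5 at least 3.0-fold lower. Smo, the transducer of Hedgehog signals, read 7.13, 4.0, 4.08 and 4.0 in injection clones and 10.27, 9.69 and 10.30 in female IVF embryos, with a male IVF average of 5.52, and the Notch ligand gene Jag2 was 2.98-fold higher. Of 49 FGF and MAP kinase genes 0 rose and 2 (4.08%) fell, the kinase gene Mapk3 (2.47-fold) and the inhibitor gene Spred2 (1.82-fold). Il11ra1, the interleukin 11 receptor, was the 1 of 31 LIF and JAK-STAT genes that fell (2.28-fold). Of 24 Hippo pathway genes 0 passed limma's test.

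Genes of epithelial junctions and of blastocoel formation held few but large falls. The gap junction gene Gjc1 read 4.0, 4.0, 4.0 and 7.30 in injection clones and 10.07, 9.01 and 10.27 in female IVF embryos, with both probes passing, and the placental cadherin gene Cdh3 was 6.59-fold lower, 2 of 51 junction genes. Cftr, the chloride channel, read 4.06, 4.0, 4.0 and 4.0 against 7.58, 6.87 and 7.69 (adjusted p = 0.00431). It was the 1 of 21 ion and water transport genes of the blastocoel that passed (4.76%), and the median of these was -0.56. The 2 junction genes were 3.92% of those tested, and 2.49% of all autosomal genes fell. When 1 array was left out 0 to 3 junction genes and 1 or 2 transport genes fell. With the deposited normalised values 0 junction genes and 1 transport gene passed.

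Cytochrome P450 and conjugation enzyme genes fell together at 1 locus. Of 87 tested genes 0 rose and 8 (9.20%, against 2.49% of all autosomal genes) fell. Cyp2b9 read 4.71, 5.75, 4.64 and 4.0 in injection clones and 8.27, 8.73 and 8.80 in female IVF embryos (adjusted p = 0.0177), Cyp2b13 was 13.2-fold and Cyp2b10 at least 6.17-fold lower. Cyp2b23, Cyp2a4 and Cyp2a5 differed by -2.47, -1.82 and -1.85. In RefSeq (GRCm38.p6) these 6 genes lie in 1 stretch of chromosome 7 that holds 12 tested genes. They are close paralogs, so their probes may share signal. Cyp2d10 and Cyp4x1, from other loci, were the remaining falls. Under scaling to the 75th percentile 4 genes of the list fell, and 2 fell with the deposited normalised values, where the median of the list was 0.19 in place of -0.26. When 1 array was left out 0 to 7 fell.

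Other called genes also had called neighbours. Counting runs of at least 3 genes called in 1 direction with gaps of at most 500 kb, 20 runs held 68 genes, 17 of the runs lower and 3 higher. Most runs were sparse: called genes made up from 6.38% to 100% of the genes tested in their span, with a median of 22.3%, and at least 50% in 6 of the runs. Asz1, Cftr and Cttnbp2, a neuronal cortactin-binding protein gene that differed by -2.77 (adjusted p = 0.042), were all 3 of the genes tested in their span on chromosome 6. Gnb4, Actl6a and Ndufb5 on chromosome 3 and Nbeal2, Pth1r and Myl3 on chromosome 9 were each 3 of 4 lower, as were Rhpn1, Zc3h3 and Gsdmd on chromosome 15. Actl6a was lower by its brightest probe only and turned higher with probes averaged per gene. On chromosome 13 H2ac13, H2ac15 and H2ac23 were 3 of 6 higher. By chromosome, the share of tested genes that fell ran from 1.13% on chromosome 8 to 3.52% on chromosome 10, and the share that rose from 0.202% on chromosome 9 to 2.75% on chromosome 3. On chromosome 9, 2 genes rose and 27 fell, and on chromosome 4, 4 and 33, whereas on chromosome 3, 22 rose and 14 fell. No test was made of the runs or of these shares.

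Germ cell, imprinted and oocyte genes went both ways. Of 48 germ cell genes known to be silenced by promoter methylation in somatic cells 1 (2.08%) rose, Tdrd1. The 2 (4.17%) that fell were Asz1 and Majin, which tethers telomeres in meiosis (5.41-fold). Under the methods' threshold 2 (4.17%) of these germ cell genes were higher and 10 (20.8%) lower. Over all autosomal genes 1.23% rose and 2.49% fell, and 4.84% were higher and 7.91% lower under that threshold. Of 69 autosomal imprinted genes 1 (1.45%) rose and 1 (1.45%) fell, and 8 (11.6%) were higher and 4 (5.80%) lower under the methods' threshold. Ube3a, a ubiquitin ligase gene, was 7.74-fold higher by 1 of 3 probes, and Magel2, from the same imprinted region, was at 4.0 in all 4 clones and at 6.19, 5.61 and 5.25 in female IVF embryos. Of 41 oocyte genes 1 (2.44%) rose and 1 (2.44%) fell, and 2 (4.88%) were higher and 5 (12.2%) lower under the methods' threshold. Figla, a transcription factor of follicle formation, was 6.25-fold higher and Nlrp4e 11.3-fold lower.

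No ribosomal protein, mitotic, proteasome, glycolytic, amino acid transporter or DNA repair gene passed limma's test. Of 72 cytosolic ribosomal protein genes 0 passed limma's test and 0 met the methods' threshold in either direction, and their median was -0.11. The same held for 42 mitotic genes, with a median of -0.36. Of 47 proteasome genes 0 passed, with a median of 0.33 and 1 higher and 1 lower under the methods' threshold, and of 23 glycolytic genes 0 passed, with 2 higher and 2 lower under the methods' threshold. Of 21 amino acid transporter genes 0 passed, while their median was -0.54 and their lower quartile -1.67, and 1 was higher and 4 lower under the methods' threshold. The median lay between -0.93 and -0.49 when 1 array was left out, and 0 or 1 gene then passed in each direction. Of 42 DNA repair genes 0 passed, with 1 higher and 4 lower under the methods' threshold. Over all autosomal genes 4.84% were higher and 7.91% lower under that threshold.

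Respiratory chain and replication genes included 7 falls and 0 rises. Of 79 respiratory chain genes 0 rose and 4 (5.06%, against 2.49% of all autosomal genes) fell. These were Uqcrh, Ndufb5, Ndufb4 and Atp5b, by 1.02, 0.92, 0.79 and 0.63 on the log2 scale. Under the methods' threshold 0 of the 79 were higher and 1 (1.27%) lower, whereas 7.91% of all autosomal genes were lower. With the deposited normalised values 0 passed, and 0 to 6 fell when 1 array was left out. Of 50 genes of the G1 to S transition and DNA replication 0 rose and 3 (6%) fell. Under the methods' threshold 1 (2%) of these was higher and 5 (10%) lower. With the deposited normalised values 1 rose and 1 fell, and 0 or 1 rose and 0 to 2 fell when 1 array was left out. The cyclin gene Ccnd1 read 4.71, 4.0, 4.0 and 4.0 in injection clones and 8.20, 7.10 and 8.64 in female IVF embryos, but male IVF embryos averaged 4.89. Cdk2 was 2.83-fold lower by 1 of 2 probes and the helicase subunit gene Mcm2 1.87-fold lower. The synthetase genes Vars and Wars were 2.99- and 1.69-fold lower, 2 of 35 tested in their group (5.71%). The ribosome biogenesis genes Bop1 and Nop2 were 1.90- and 1.89-fold lower, 2 of 32 (6.25%). The stress sensor Atf6 and the chaperone Hsp90b1 were 2.68- and 1.99-fold lower, 2 of 35 (5.71%). Over all autosomal genes 2.49% fell. With the deposited normalised values 0 genes of these groups passed, and 0 or 1 fell in each when 1 array was left out.

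Cholesterol, lysosome and mitochondrial ribosomal protein genes included 6 rises and 0 falls. Of 29 cholesterol genes 2 (6.90%, against 1.23% of all autosomal genes) rose and 0 fell. These were Srebf2, the master regulator of sterol synthesis (15.40, 14.77, 15.46 and 15.26 against 13.34, 14.09 and 13.65, 1 of 4 probes passing), and the cholesterol exporter of lysosomes Npc1 (2.16-fold). Of 36 lysosome and autophagy genes 2 (5.56%) rose and 0 fell, the autophagosome gene Map1lc3a (3.47-fold) and the ceramidase gene Asah1 (1.80-fold). Mrpl22 and Mrps23, 2 of 75 mitochondrial ribosomal protein genes (2.67%), were 2.02- and 2.05-fold higher. Under the methods' threshold 3 (4%) of the 75 were higher, against 4.84% of all autosomal genes. With the deposited normalised values 0 cholesterol, 0 mitochondrial ribosomal protein and 1 lysosome gene rose, as with a floor of 1 on the linear scale. When 1 array was left out 0 or 1 cholesterol, 0 to 3 lysosome and 0 or 1 mitochondrial ribosomal protein genes rose. The fatty acid binding protein gene Fabp5, the heat shock protein gene Dnajb4 and the glutathione synthetase gene Gss were 4.26-, 5.22- and 2.07-fold higher. Each was the 1 gene called in its group, of 37 (2.70%), 30 (3.33%) and 38 (2.63%) tested, against 1.23% of all autosomal genes.

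Zinc finger and odorant receptor genes, which form large families, were called in both directions. Over all autosomal genes 1.23% rose and 2.49% fell, and the median was -0.16. Of 328 zinc finger genes named Zfp 5 (1.52%) rose and 11 (3.35%) fell, with a median of -0.40. When 1 array was left out 0 to 18 fell, 18 without injection clone 4 and none without injection clone 1, 2 or 3. Zfp750 and Zfp879 (at least 6.43-fold) led the rises and Zfp57 and Zfp74 (5.15-fold) the falls. Of 462 odorant receptor genes tested 1 (0.216%) rose and 12 (2.60%) fell, the share that fell being near the 2.49% of all autosomal genes. Under scaling to the 75th percentile 3 fell, and with normexp background correction 1. When 1 array was left out 0 to 11 fell, none without injection clone 1, 2 or 3. Of the odorant receptor genes 114 were well above background on all 7 arrays, and many share sequence. Of 15 clustered protocadherin genes 0 passed limma's test. Over the 56 gene groups described by these lists, 9 held no called gene, 25 held only falls, 10 only rises and 12 both. Of the 56, 32 had a median below that of all autosomal genes. All autosomal genes leaned the same way, with 204 rises and 413 falls, and no test was made of these group counts.

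**Figure D5:**
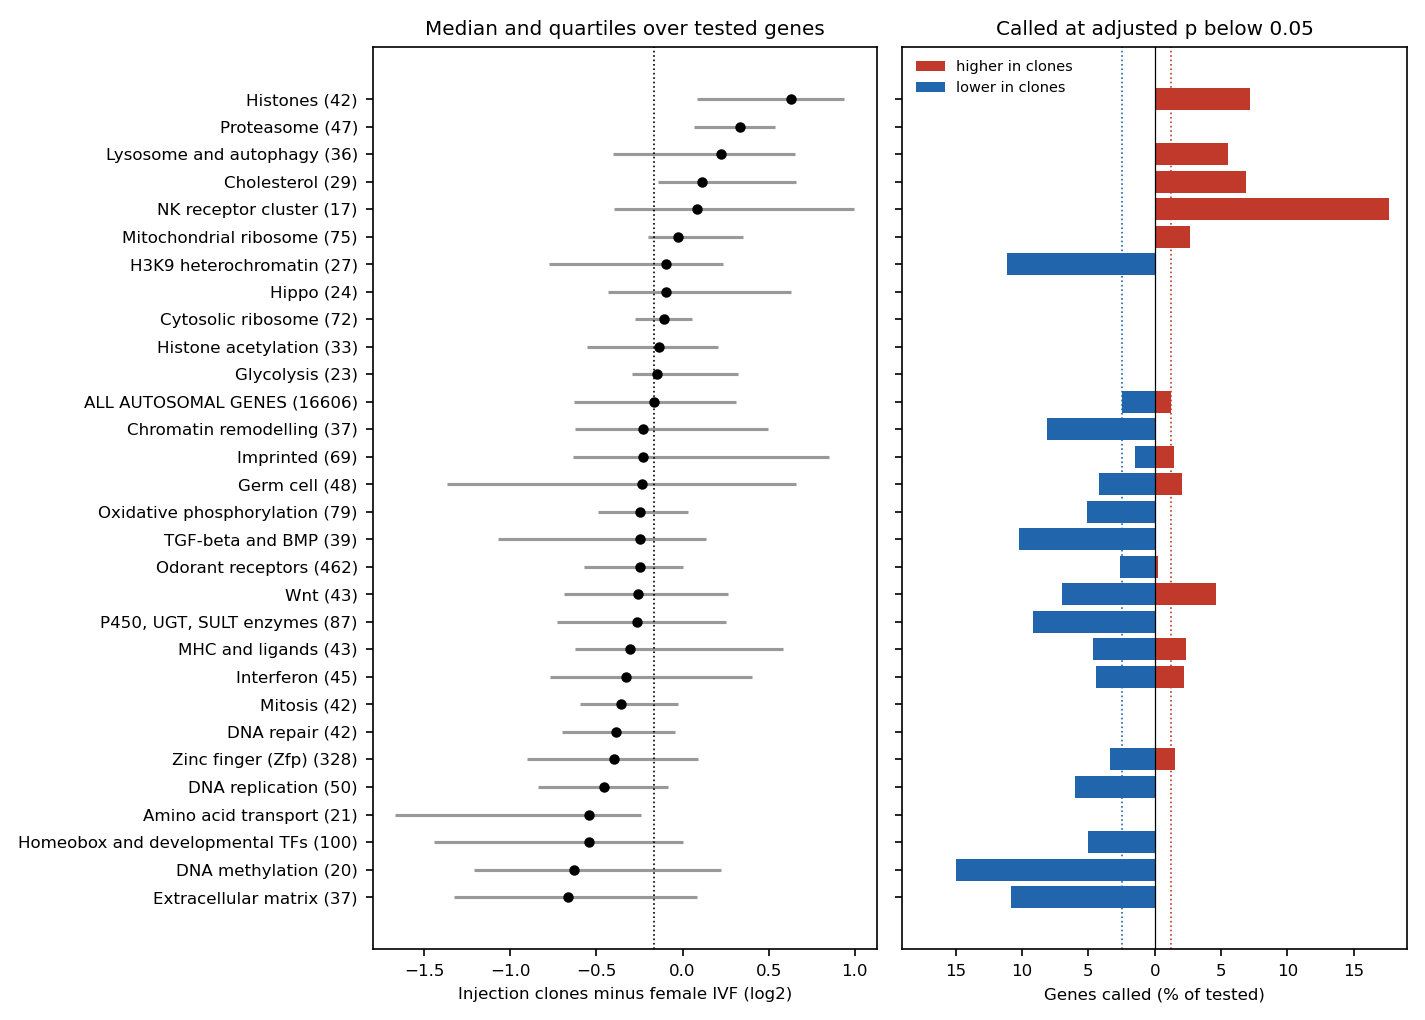
Median log2 difference between injection clones and female IVF embryos with its quartiles (left) and percent of tested genes called higher or lower (right) for 29 gene groups and for all autosomal genes, with dotted lines for the values of all autosomal genes. DNA methylation and matrix genes have medians of -0.63 and -0.66, and histone genes have a median of 0.63.

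The method of transfer was compared for the same genes. In the limma test of injection against fusion clones 0 of 32303 probes passed, and the smallest adjusted p among the called autosomal genes was 0.39. Their median absolute difference between the clone groups was 0.23 on the log2 scale, and at an unadjusted p below 0.05 55 of the 601 that were tested differed, against 945 of 15873 autosomal genes. The genes that fell had a median level of 7.86 in injection and 7.68 in fusion clones, and those that rose 11.66 and 11.45. The male IVF embryos stood at medians of 9.61 and 10.33 for the genes that fell and rose. A p above the threshold does not show that the clone groups were alike. The called genes were chosen on the same injection arrays, so these shares and levels are no separate evidence on the method of transfer. Each clone group also lay on a slide of its own. Fusion clones against female IVF embryos gave 3085 called of 32458 probes (9.5%) and injection clones against male IVF embryos 1664 of 32590 (5.11%), comparisons that share arrays with the one described here.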

How the data were processed

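Per the labels, each sample was total RNA of E4.0 blastocysts extracted with TRIzol, amplified, labelled with Cy3 and hybridized to 1-colour Agilent arrays. Submitters' notes name Agilent Feature Extraction 10.5.1, and the file headers name 10.5.1.1 for clones and 9.5.3.1 for IVF embryos. The deposited processed signal is a background-corrected intensity per spot. It was quantile-normalized over 14 arrays, set to a floor of 16, log2-transformed and averaged per probe. The deposited series table holds log2 values normalised by the authors, whose scale and centring stay unknown (array medians -0.23 to 0.16). It served as an alternative. Of 41174 gene probes, 33493 (81.3%) matched RefSeq, to 19932 genes (28007 by accession, 3880 by symbol, 1606 by older symbol). Probes that passed Agilent's background test on 1 or more of these 7 arrays (32840) entered limma 3.58.1 (R 4.3.3, moderated test, Benjamini-Hochberg over all probes tested), and 1205 (3.67%) were called. The array number limits precision. The script was tested on simulated data.

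Named genes were called autosomal genes, without predicted or clone names. They were the 12 largest rises and falls of at least 2-fold among genes well above background on all 7 arrays, the 8 with the largest lower bounds in each direction, the 8 with the smallest p in each direction, up to 4 in each direction from each described gene group, and the cell type markers. For gene groups with few called genes, called members under 2-fold were also named, chosen after their values were seen, as were H2A and Cyp2 neighbours and genes in runs. The members and lists were chosen with earlier results of these data known. Alternatives were other scalings, background correction, floors, filters, probe rules, pooled fits, leaving out each array and a replicate block. In the IVF files of the female embryos 8279 to 8744 spots had a negative processed signal, and in those of the clones 0. A result for 1 gene is not reported here.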

Additional observations from a re-analysis of the deposited data

Results flagged for a closer look

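For some named genes 1 of the 4 injection clones stood far from the other 3, measured as its gap to the nearest clone over the range of the group. This was so for 19 of 140 genes, clones 1 to 4 being the distant array 4, 4, 2 and 9 times. In 8 of the 19 the other 3 clones were tied at the floor, which fixes the share at its highest value however small the gap, so the chance rate of about 1 in 20 groups does not apply to them. Of the other 132 genes 11 did so. For Bmp6, Cacng6, Ccnd1, Cftr, Cyp2b10, Gjc1, Il1r2 and Olfr1406 the share was 1.0, since the other 3 clones were at the floor of 4.0 and the distant clone lay above it, between 4.04 for Cacng6 and 7.30 for Gjc1. Clone 4 was lowest for H2ac15 (0.835), H2ac23 (0.874), Serpinh1 (0.932) and Ube3a (0.861) and highest for Il11ra1 (0.863) and Zfp57 (0.878). Clone 2 was lowest for Gbp8 (0.861) and Zfp706 (0.869). Clone 1 was lowest for Zfp42 (0.855) and highest for Smo (0.974), and clone 3 was highest for Ifitm3 (0.850).

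The Agilent E1A control spots, which report RNA added to the sample and no mouse gene, had median processed signals of 21744.7, 19896.4, 11749.4 and 9614.77 in injection clones 1 to 4. In the female IVF embryos the same spots read 10.6, 7.76 and 7.22. These spots entered neither the normalization nor a comparison.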

How the results depend on the processing

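At the settings reported, 1205 probes, 204 higher and 413 lower autosomal genes were called. The deposited table gave 629 probes and 111 and 134 genes, a floor of 1 gave 599, 67 and 159, no filter 774 probes and 135 higher genes, and probes averaged per gene 646. Fits with all 4 groups gave 3100, 591 and 1035, all 6 IVF embryos as control 2748, 616 and 988, and the methods' threshold 4603, 804 and 1313. Leaving out 1 array gave 173 to 1366 probes, 19 to 197 higher and 54 to 447 lower genes. Counts fell over 1.5 times without injection clone 1 (264, 28 and 79), 2 (203, 25 and 61) or 3 (173, 19 and 54) and female IVF embryo 3 (527, 66 and 198), and without female IVF embryo 2 133 genes were higher. Of the 155 named genes that passed, all kept their direction and 21 their call in each such fit, and 63 were called under every scaling. With the replicate number as a block, 0 probes passed limma's test (0 higher and 0 lower genes), with 6246 at an unadjusted p below 0.05 against 7605 without it. Same-numbered arrays did not deviate together (correlations -0.063 to -0.006), so the numbers were not taken as pairs. With probes averaged per gene, Actl6a (1.01), Bcl2l11 (1.09), Cabin1 (0.50), Ep400 (0.56), Ireb2 (0.19), Zfp710 (0.66) and Dnmt3a (-0.14) turned sign. Gata6 turned to 0.027 with normexp, 0.094 with all 6 IVF embryos and 0.040 with the replicate block, and ranged from -0.30 to 0.14 over the fits that left out 1 array. The causes were not tested. Differences of genes at the floor depend on it.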
